A study of Mus musculus with 12 samples.

Results

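The genes described here are 10 components of the NRF2 antioxidant pathway, chosen by symbol with earlier results of these data known. The symbols were matched through the mouse annotation of GENCODE, release M21 (GRCm38). All 10 were found in both deposited tables of read counts, out of 55487 gene identifiers in each. They are the transcription factor gene Nfe2l2, which encodes NRF2, its inhibitor Keap1, the glutathione genes Gclc, Gclm and Gsr, the thioredoxin and peroxiredoxin genes Txnrd1, Srxn1 and Prdx1, and the genes Nqo1 and Hmox1. Their values were measured by total RNA sequencing in 12 samples of mouse OT-1 CD8+ T cells, which form 4 groups of 3, labelled Female, Male, WT and KD. OT-1 cells carry a transgenic T cell receptor that recognises an ovalbumin peptide. Female and Male were splenic T cells of each sex, activated with beads against CD3 and CD28 in the presence of recombinant IL2 for 3 days. WT and KD were cells of a separate batch, all of them male, that were electroporated and then kept in culture for 3 days. In the KD group, Cas9 was introduced together with a guide RNA to knock down Kdm5d, a Y-linked histone demethylase. The WT group was given the guide RNA alone, so that the presence of Cas9 and the targeting of Kdm5d cannot be told apart. Mouse ages and the number of mice behind the samples were not given in the sources used here, so p-values measure only the spread between these samples, which may be technical.

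NRF2 is a transcription factor that is made continuously and held low by KEAP1, an adaptor that presents it to a CUL3 ubiquitin ligase for degradation. Oxidants and electrophiles modify cysteines of KEAP1, NRF2 then accumulates, pairs with a small MAF protein and binds antioxidant response elements near genes for glutathione synthesis, thioredoxin recycling, quinone reduction and heme breakdown. Because the control is mainly on the protein, the Nfe2l2 transcript is not a measure of NRF2 activity. In T cells, activation raises the production of reactive oxygen species, and glutathione is needed for the growth that follows.

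The antioxidant response element has the core letters TGACNNNGC, where N is any base, and these letters were searched on both strands of RefSeq promoter windows (GRCm38.p6) that run from 250 bases before to 50 bases after an annotated start. Of the 10 genes, 7 had such a window, and Gclc, Gsr and Hmox1 had none in the table used. The core was found in at least 1 window of 5 of these 7 genes, and in 5 of their 9 windows, against 12.4% of 32851 windows of all genes. A match is a description of the letters and was not tested for binding. The stretches before the start are shown for the 4 genes whose match lay there, because they place the element beside the values that follow. Each is the 250 bases before the start, 5′ to 3′ on the strand of the gene, with the match in capitals. The starts are those of RefSeq and can differ from those of GENCODE.
Nfe2l2 (chr2:75704664-75704913, minus strand): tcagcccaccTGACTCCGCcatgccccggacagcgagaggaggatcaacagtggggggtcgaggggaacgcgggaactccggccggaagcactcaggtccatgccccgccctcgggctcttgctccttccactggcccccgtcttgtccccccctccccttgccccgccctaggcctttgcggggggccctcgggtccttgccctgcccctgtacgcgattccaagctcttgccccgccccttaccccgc
Gclm (chr3:122245307-122245556, plus strand): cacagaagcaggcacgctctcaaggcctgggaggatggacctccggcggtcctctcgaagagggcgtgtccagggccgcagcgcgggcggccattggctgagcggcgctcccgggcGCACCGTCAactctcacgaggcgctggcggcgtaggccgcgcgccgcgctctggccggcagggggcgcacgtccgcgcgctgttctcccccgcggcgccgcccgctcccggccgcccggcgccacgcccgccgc
Txnrd1, the middle of its 3 windows (chr10:82858956-82859205, plus strand): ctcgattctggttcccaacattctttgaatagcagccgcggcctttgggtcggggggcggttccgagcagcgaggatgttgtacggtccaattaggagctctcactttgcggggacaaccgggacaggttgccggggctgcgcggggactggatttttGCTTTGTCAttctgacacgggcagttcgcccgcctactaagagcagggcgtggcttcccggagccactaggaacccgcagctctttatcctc
Prdx1 (chr4:116685349-116685598, plus strand): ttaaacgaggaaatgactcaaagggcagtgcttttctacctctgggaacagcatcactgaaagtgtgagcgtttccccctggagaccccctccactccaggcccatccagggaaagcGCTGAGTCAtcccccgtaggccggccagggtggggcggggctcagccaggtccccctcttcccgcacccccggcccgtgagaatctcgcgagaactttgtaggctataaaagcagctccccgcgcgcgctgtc

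Counted from the start at 0 to the leftmost base of the match, the element stood at -240 in Nfe2l2, -134 in Gclm, -92 in Txnrd1 and -133 in Prdx1. The Nfe2l2 match read TGACTCCGC on the strand of the gene. The others were on the opposite strand, and read there TGACGGTGC in Gclm, TGACAAAGC in Txnrd1 and TGACTCAGC in Prdx1. In Prdx1 the match overlapped the letters TGANTCA of an AP-1 site, which were found in 7.81% of all windows. A second AP-1 match lay further out in the Prdx1 window, at -237. In Srxn1 the core TGACCTAGC stood after the start, at 28, and AP-1 letters were found at -102 and -45. No core match was found in the windows of Keap1 and Nqo1.

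Total counts ranged from 78748647 to 110803318 per sample. Levels are given as CPM, the counts per 1000000 of a library size scaled by TMM, a normalization on the bulk of genes. Kdm5d was at 48.4, 51.9 and 52.4 CPM in WT and 21.4, 21.8 and 22.9 CPM in KD, a log2 difference of -1.21 ± 0.045 (SE, edgeR adjusted p = 3.13e-08), and at 0 to 0.0213 CPM in Female. The 8 CD8 T cell markers summed to 2409 to 2453 CPM in Female, 2579.6 to 2668 in Male, 3203 to 3283 in WT and 2959.7 to 3177 in KD. In Male 1 of these 8, Thy1, was called higher, at 1011 against 686 CPM in Female, and 4 were called lower, among them Cd8a at 499 against 537 CPM. In KD against WT also, 1 of the 8 was called higher and 4 were called lower. The 3 CD4 T cell markers summed to 87.2 to 89.6 CPM in Female and 53.9 to 57.3 CPM in Male, mostly from Zbtb7b. Cd4 itself had 14 to 19 counts per Female sample and 0 in Male. Of these 3 markers 2 were called lower in Male. Foxp3 went the other way and was called higher, at means of 4.38 CPM in Male and 2.82 CPM in Female. In bulk RNA, fewer cells of a type and less RNA per cell cannot be told apart.

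Per length, Prdx1, a peroxiredoxin that removes hydrogen peroxide, had the highest level of the 10 genes in each group. Its level in CPM per kilobase of exon (RPKM) was 30.3 ± 1.17 (SD, n = 3) in Female, 72.4 ± 0.104 in Male, 116 ± 1.56 in WT and 109.6 ± 0.244 in KD. Gsr and Txnrd1, the reductases that recycle glutathione and thioredoxin, came next in every group, at 22.4 ± 0.135 and 20.4 ± 0.574 RPKM in Female. Gsr lay above Txnrd1 without overlap in Female and Male, the samples of the pair overlapped in WT, and in KD Txnrd1 lay above Gsr at 40.7 ± 0.668 and 38.7 ± 0.771 RPKM. This order between genes depends on the merged exon lengths used, 7086 bases for Txnrd1 and 2754 for Gsr. In CPM, Txnrd1 was above Gsr in each group, at means of 145 and 61.7 in Female. The regulators Nfe2l2 and Keap1 were of similar level per length in Female, where their samples overlapped, at 16.8 ± 0.418 and 16.7 ± 0.192 RPKM. Their Female means in CPM were 63.6 and 78.2. Srxn1 and Nqo1 were the lowest pair in Female and Male, at 0.669 ± 0.0394 and 0.730 ± 0.130 RPKM in Female. In WT these 2 genes were at 7.87 ± 0.0440 and 7.58 ± 0.469 RPKM, and as a ratio to Female these were the largest steps of the 10 genes. That difference sets side by side samples from separately normalised tables, and the batch, the electroporation and the culture cannot be told apart in it.

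**Figure D1:**
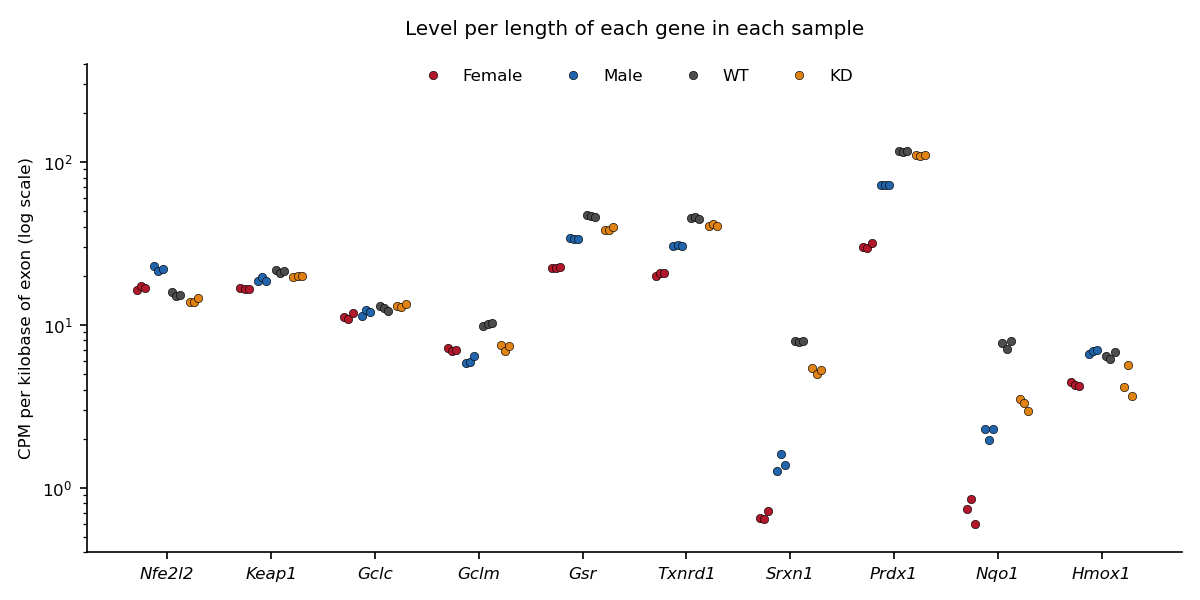
Level of each gene in each of the 12 samples, in CPM per kilobase of exon on a log axis, with 1 point per sample and the 4 groups in colours. Prdx1 is the top gene in each group, and Srxn1 and Nqo1 spread over the widest range on this axis, from under 1 in Female to near 8 in WT.

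The first comparison asked how the cells of male and female mice differ. Of the 10 genes, 8 were higher in Male, Gclm was lower, and Gclc did not pass the test (edgeR quasi-likelihood test, Benjamini-Hochberg adjustment over 20208 genes, adjusted p under 0.05). Of all genes tested, 49.8% were called, 23.5% higher and 26.3% lower. The median log2 difference of the 10 was 0.58 against 0.011 over all genes, and the median absolute difference was 0.585 against 0.327. The largest difference was in Nqo1, 3.00-fold higher in Male, followed by Prdx1 at 2.39-fold and Srxn1 at 2.11-fold. Male and Female samples did not overlap in 9 of the 10 genes, as for 58.3% of all genes tested.

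Both regulators were higher in Male. Nfe2l2 (ENSMUSG00000015839, chr2:75675513-75704641, minus strand) was at 61.9, 65.1 and 63.8 CPM in the Female samples and 86.9, 81.0 and 84.0 CPM in the Male samples. Every Male sample was above every Female sample, with a log2 difference of 0.40 ± 0.032 (SE, edgeR adjusted p = 2.24e-06), which is 1.32-fold. Keap1 (ENSMUSG00000003308, chr9:21229730-21239361, minus strand), whose protein targets NRF2 for degradation, was at 79.2, 77.4 and 78.1 CPM in Female and 87.5, 91.6 and 87.0 CPM in Male. The groups were apart here too, but the difference was smaller, 0.18 ± 0.027 (SE, edgeR adjusted p = 0.000264). In size it stood at the 30.9th percentile of absolute differences over all genes, and that of Nfe2l2 at the 58.1st. Exons of Keap1 overlap those of the antisense gene Gm16754 over 510 bases, and since the use of strand in counting was not given, reads there cannot be assigned. Gm16754 itself had mean levels of 5.50 CPM in Female and 7.60 CPM in Male.

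The glutathione genes did not move as one. Gsr (ENSMUSG00000031584, chr8:33652523-33698163, plus strand), glutathione reductase, which returns oxidised glutathione to its reduced form, was at 61.5, 61.6 and 62.2 CPM in Female and 93.7, 92.2 and 92.6 CPM in Male. Its groups were tight and far apart, with a log2 difference of 0.59 ± 0.023 (SE, edgeR adjusted p = 1.07e-08). Gclc and Gclm encode the catalytic and the modifier subunit of glutamate-cysteine ligase, the rate-limiting enzyme of glutathione synthesis. Gclc (ENSMUSG00000032350, chr9:77754535-77794485, plus strand) was at 42.1, 41.1 and 44.4 CPM in Female and 42.6, 46.3 and 44.7 CPM in Male, and the groups overlapped. Its log2 difference of 0.07 ± 0.042 (SE, edgeR adjusted p = 0.220) had a 95% interval of -0.03 to 0.16, which spans a fall of 1.9% to a rise of 12%. The modifier subunit gene Gclm (ENSMUSG00000028124, chr3:122245557-122270732, plus strand) was at 45.0, 43.1 and 44.3 CPM in Female and 36.5, 36.9 and 40.6 CPM in Male. All Male samples were below all Female samples, and the log2 difference was -0.22 ± 0.045 (SE, edgeR adjusted p = 0.00229). Exons of Gclm overlap those of Gm17494, on the other strand, and of the pseudogene Gm6061, which was at most 0.248 CPM, over 540 bases in all. Gm17494 had a mean of 32.8 CPM in Female and 57.0 CPM in Male, the opposite direction to Gclm, and its part in the counts of Gclm was not tested.

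Txnrd1, Prdx1 and Srxn1, the chosen genes of the thioredoxin branch, were all higher in Male. Txnrd1 (ENSMUSG00000020250, chr10:82833951-82897712, plus strand), cytosolic thioredoxin reductase, was at 140.0, 148 and 146 CPM in Female and 216, 218 and 215 CPM in Male, a log2 difference of 0.58 ± 0.025 (SE, edgeR adjusted p = 2.51e-08). Prdx1 (ENSMUSG00000028691, chr4:116685544-116700822, plus strand) was at 91.2, 89.4 and 96.2 CPM in Female and 220.1, 220.1 and 221 CPM in Male. The Male samples agreed to within 1 CPM and every one was more than 2 times the highest Female sample, with a log2 difference of 1.26 ± 0.029 (SE, edgeR adjusted p = 3.36e-10). Prdx1 shares 15.42% of its 31-base subsequences with other genes, 9.71% with the processed pseudogene Gm21399, which had mean levels of 4.29 CPM in Female and 9.23 CPM in Male. Srxn1 (ENSMUSG00000032802, chr2:152105516-152111376, plus strand), sulfiredoxin, which repairs over-oxidised peroxiredoxins, was at 1.83, 1.82 and 2.02 CPM in Female and 3.56, 4.54 and 3.88 CPM in Male. The groups were apart although the level was low, and the log2 difference was 1.08 ± 0.14 (SE, edgeR adjusted p = 8.15e-05).

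Nqo1 and Hmox1, both widely used as readouts of NRF2, were higher in Male as well. Nqo1 (ENSMUSG00000003849, chr8:107388225-107403206, minus strand), a quinone reductase, was at 1.14, 1.33 and 0.926 CPM in Female and 3.57, 3.06 and 3.57 CPM in Male. These levels rest on 90 to 125 counts per Female sample and 283 to 334 per Male sample. The log2 difference was 1.58 ± 0.17 (SE, edgeR adjusted p = 2.13e-05), larger in size than that of 97.0% of genes tested. Hmox1 (ENSMUSG00000005413, chr8:75093621-75100589, plus strand), heme oxygenase 1, which breaks heme into biliverdin, iron and carbon monoxide, was at 7.79, 7.47 and 7.32 CPM in Female and 11.6, 12.1 and 12.3 CPM in Male. The groups were apart, with a log2 difference of 0.67 ± 0.067 (SE, edgeR adjusted p = 1.32e-05). Macrophages express Hmox1 strongly, and the summed level of 8 macrophage and monocyte markers was 2.24 to 2.93 CPM in Female and 3.32 to 3.51 CPM in Male. Of those 8, Cd14, Marco and Mrc1 were at 0 counts in both groups, Adgre1 also in Female and Lyz2 and Fcgr1 also in Male. Most of the sum was Cd68, which was called higher in Male, at means of 2.12 CPM in Female and 3.11 CPM in Male. Csf1r was level, at 0.286 and 0.293 CPM. The part of such cells in the Hmox1 difference was not tested.

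**Figure D2:**
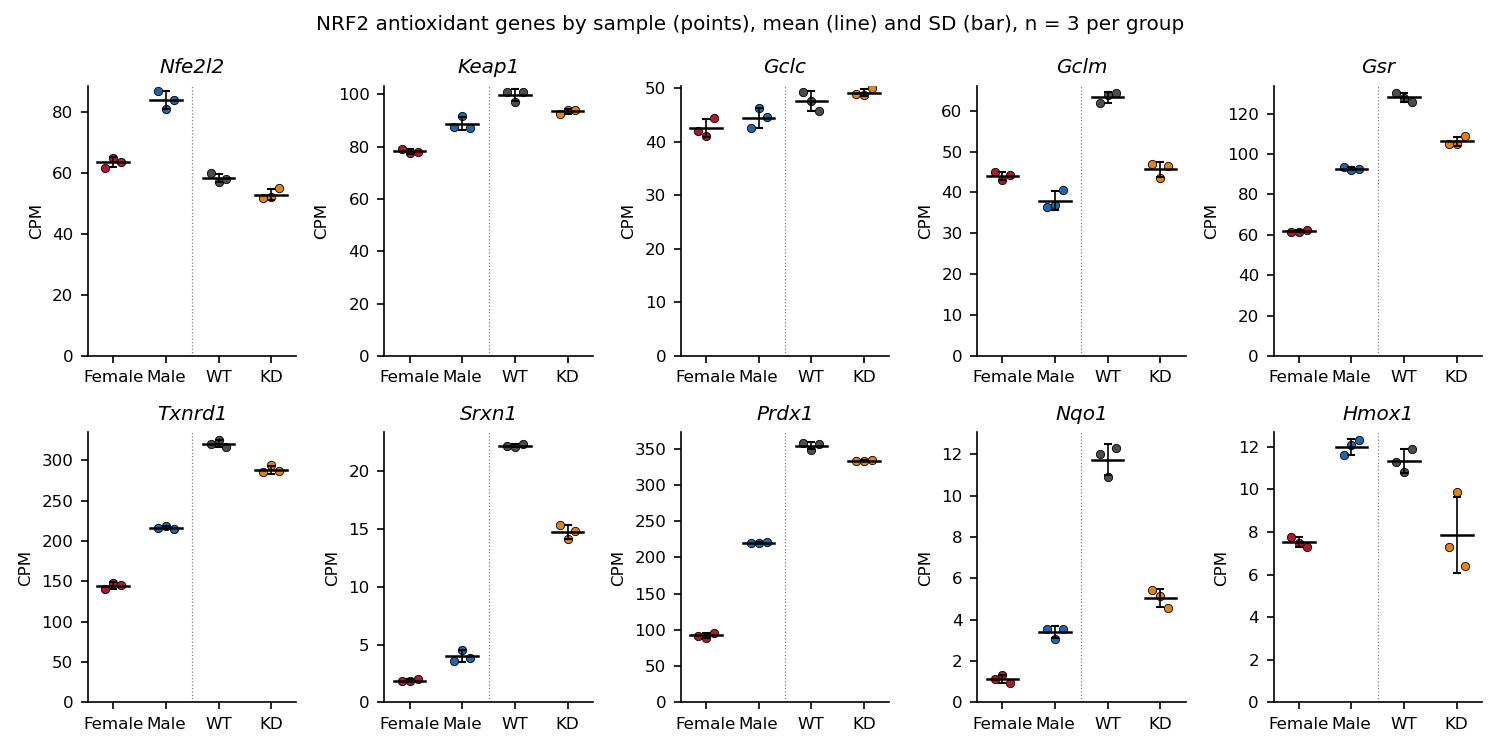
CPM of each gene in each sample (points), with the mean (line) and SD (bar) of the 3 samples of a group. The y axes start at 0 and differ between panels, and the dotted line separates the tables, which were normalised separately. Male stands above Female in 8 panels, KD stands below WT in 9, and the groups overlap in both comparisons only for Gclc.

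The second comparison asked what followed the introduction of Cas9 with the Kdm5d guide into male cells. Of the 10 genes, 9 were lower in KD, none was higher, and Gclc did not pass the test (edgeR quasi-likelihood test, adjusted over 20413 genes). Over all genes tested, 35.1% were called, 16.8% higher and 18.4% lower. Most falls were small: the median log2 difference of the 10 genes was -0.21 against 0.012 over all genes, and the median absolute difference of 0.208 was close to the 0.212 of all genes. Nqo1 fell by 57.1%, Srxn1 fell by 33.6%, Hmox1 fell by 30.5% and Gclm fell by 27.8%, the largest falls of the 10. KD and WT samples did not overlap in 9 of the 10 genes, as for 46.8% of all genes tested.

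Nfe2l2 and Keap1 fell by under 10%. Nfe2l2 was at 60.1, 57.3 and 58.0 CPM in WT and 51.9, 52.1 and 55.1 CPM in KD, so that every KD sample was below every WT sample by a narrow gap. Its log2 difference was -0.14 ± 0.037 (SE, edgeR adjusted p = 0.0126). Without WT replicate 1 the edgeR adjusted p was 0.0502. Keap1 was at 101, 97.2 and 101 CPM in WT and 92.5, 94.1 and 93.9 CPM in KD. It differed by -0.09 ± 0.027 (SE, edgeR adjusted p = 0.0217), and this call was lost with upper-quartile scaling, at -0.06 (edgeR adjusted p = 0.103). The Keap1 call was also lost without WT replicate 1, WT replicate 3 or KD replicate 1, with edgeR adjusted p of 0.0801, 0.0807 and 0.0722.

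Among the glutathione genes, the modifier subunit gene Gclm fell most. It was at 61.8, 63.8 and 64.3 CPM in WT and 47.0, 43.6 and 46.5 CPM in KD. The lowest WT sample was well above the highest KD sample, and the log2 difference was -0.47 ± 0.038 (SE, edgeR adjusted p = 6.18e-06). Gm17494, whose exons overlap those of Gclm, had a mean of 70.7 CPM in WT, with up to 105 CPM in 1 sample, and 65.8 CPM in KD. The catalytic subunit gene Gclc was at 49.4, 47.7 and 45.8 CPM in WT and 48.9, 48.7 and 50.0 CPM in KD, with overlapping groups. The Gclc difference of 0.05 ± 0.037 (SE, edgeR adjusted p = 0.392) had a 95% interval of -0.04 to 0.13, from a fall of 2.5% to a rise of 9.4%. Gsr was at 130.3, 128 and 126 CPM in WT and 105, 105 and 109 CPM in KD. The groups were clearly apart for this reductase, with a log2 difference of -0.26 ± 0.027 (SE, edgeR adjusted p = 3.05e-05).

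The thioredoxin genes fell by unequal amounts. Srxn1 was at 22.2, 22.1 and 22.3 CPM in WT and 15.3, 14.1 and 14.8 CPM in KD, a log2 difference of -0.59 ± 0.047 (SE, edgeR adjusted p = 5.99e-06). Its WT samples were nearly equal and stood far above all KD samples. Txnrd1 was at 319.8, 325 and 316 CPM in WT and 285, 294 and 286 CPM in KD, which gave -0.15 ± 0.020 (SE, edgeR adjusted p = 0.000232). The fall of Prdx1 was the smallest that passed, at 357, 348 and 356 CPM in WT and 333, 333 and 334 CPM in KD, with a log2 difference of -0.08 ± 0.018 (SE, edgeR adjusted p = 0.00442). In size it stood at the 22.5th percentile of all genes tested, whereas its sex difference stood at the 94.4th percentile.

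The largest fall was that of Nqo1, which was at 12.0, 10.9 and 12.3 CPM in WT and 5.43, 5.15 and 4.58 CPM in KD. The highest KD sample was less than 0.5 times the lowest WT sample, and the log2 difference of -1.22 ± 0.086 (SE, edgeR adjusted p = 2.48e-06) was larger in size than that of 96.2% of genes tested. Hmox1 was at 11.3, 10.8 and 11.9 CPM in WT and 7.30, 9.88 and 6.41 CPM in KD. KD replicate 2 lay nearer to WT than to the other KD samples, and the groups did not overlap. The log2 difference was -0.53 ± 0.14 (SE, edgeR adjusted p = 0.0124), and it ranged from -0.73 to -0.40 when each replicate was left out. The 8 macrophage and monocyte markers summed to 6.10 to 7.07 CPM in WT and 4.40 to 5.17 CPM in KD, with Adgre1 and Marco at 0 counts in both. Most of the sum was Cd68, which was called lower in KD, at means of 6.20 CPM in WT and 4.13 CPM in KD. Csf1r was level, at 0.405 and 0.415 CPM, and Cd14 went the other way, at 0.0206 CPM in WT and 0.137 CPM in KD. The 5 dendritic cell markers summed to 6.15 to 6.58 CPM in WT and 1.75 to 2.55 CPM in KD. This sum came mostly from Itgax, at means of 3.57 CPM in WT and 1.19 CPM in KD, and Xcr1, at 2.78 and 1.05 CPM. Siglech was at 0 counts in both groups. Flt3 and Clec9a were at 0 counts in KD and at means of 0.0504 and 0.0275 CPM in WT. The part of any such cells in the Hmox1 difference was not tested.

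**Figure D3:**
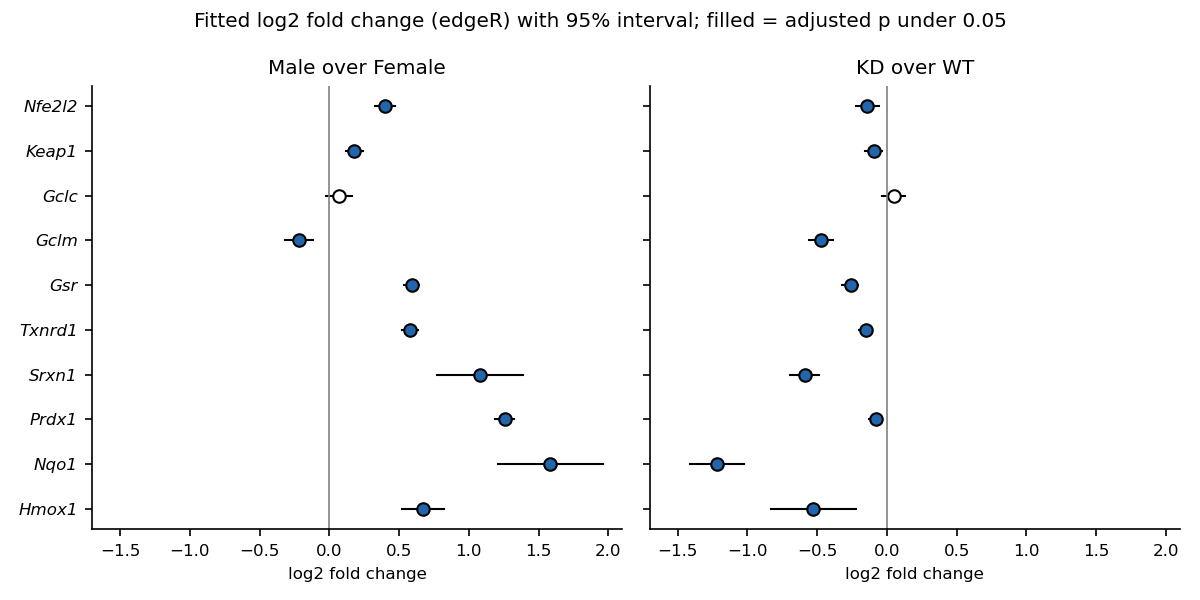
Log2 fold change of each gene, Male over Female on the left and KD over WT on the right, with the 95% interval of the edgeR fit as a bar. Filled points passed an adjusted p under 0.05. On the left 8 genes lie to the right of 0 and Gclm lies to the left, on the right 9 genes lie to the left of 0, and Gclc is open in both.

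Set side by side, 8 of the 10 genes were higher in Male than in Female and lower in KD than in WT, a pattern held by 7.33% of the 19529 genes tested in both tables. These were Nfe2l2, Keap1, Gsr, Txnrd1, Srxn1, Prdx1, Nqo1 and Hmox1. Gclm was lower in Male and lower in KD, as were 6.62% of all genes, and Gclc was called in neither. The comparisons share no samples. The sizes did not run in parallel: Prdx1 differed by 1.26 with sex and -0.08 in KD on the log2 scale, and Gclm by -0.22 and -0.47. Nqo1 had the largest difference in both, 1.58 and -1.22.

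Across the 4 groups, the order of CPM levels was Female, Male, KD, WT from low to high for Keap1, Gsr, Txnrd1, Srxn1, Prdx1 and Nqo1. Neighbouring groups did not overlap in any of these 6 genes. Nqo1, for example, rose along this order from means of 1.13 through 3.40 and 5.05 to 11.8 CPM. Nfe2l2 had another order, KD, WT, Female, Male, also without overlap between neighbours, so that the transcript of the regulator was lower in the electroporated batch while 6 of the other genes were higher there. For Gclm the order was Male, Female, KD, WT, with Female and KD overlapping. Hmox1 ran Female, KD, WT, Male, and both the lower and the upper pair overlapped. Gclc ran Female, Male, WT, KD with overlap between all neighbours. In CPM, the KD mean stood nearer to WT than to Female in Keap1, Gsr, Txnrd1, Srxn1 and Prdx1, and nearer to Female in Nqo1. As a ratio, the KD mean of Nqo1 was nearer to WT as well. The step between the tables joins batch, electroporation and normalization, and was not tested.

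Ratios within a sample, which do not depend on the scaling of libraries, were computed for 3 pairs. Gclm over Gclc, modifier over catalytic subunit, was 0.640, 0.629 and 0.597 in the Female samples and 0.512, 0.477 and 0.544 in the Male samples as a ratio of RPKM. The same ratio was 0.749, 0.800 and 0.840 in WT and 0.574, 0.536 and 0.557 in KD. It was lower in each Male sample than in each Female sample, and lower in each KD than in each WT sample. Nfe2l2 over Keap1, factor over inhibitor, had a mean of 1.01 ± 0.0366 (SD, n = 3) in Female and 1.17 ± 0.0703 in Male. In WT it was 0.725 ± 0.0121 and in KD 0.701 ± 0.0216. Male exceeded Female in this ratio without overlap, whereas WT and KD overlapped. Srxn1 per 100 Prdx1, the repair enzyme over its substrate, was 2.05 ± 0.0453 in Female and 1.81 ± 0.227 in Male as a ratio of CPM, with overlapping samples. It was 6.28 ± 0.0538 in WT and 4.42 ± 0.186 in KD, without overlap. With 3 samples against 3 the smallest two-sided p of an exact permutation test is 0.1, so that test could not pass 0.05, and no other test of the ratios was run.

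**Figure D4:**
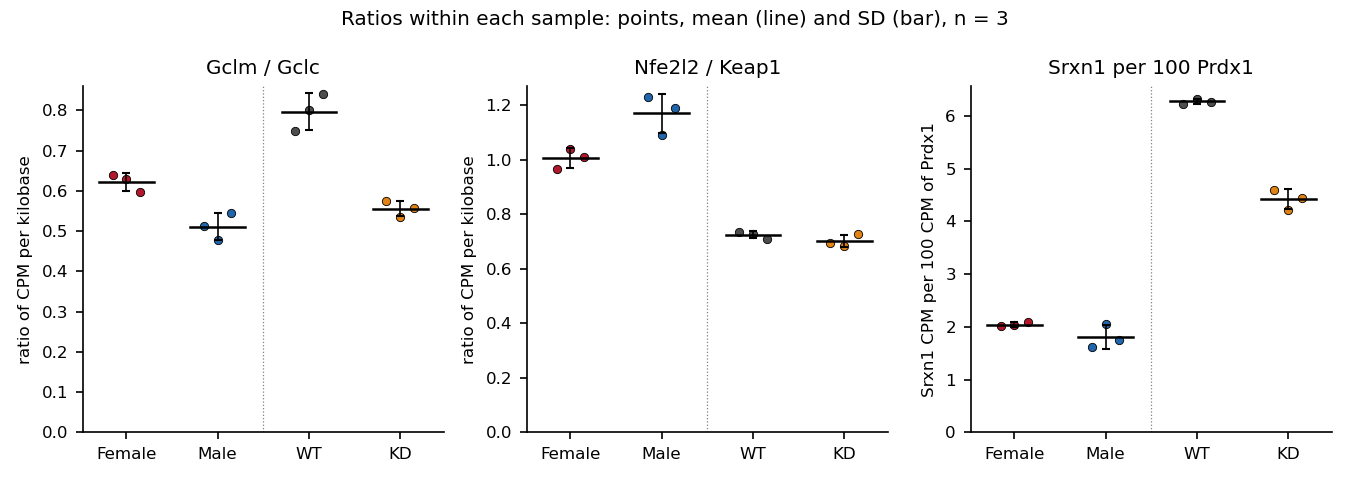
Ratios of levels within each sample (points), with mean (line) and SD (bar) of 3 samples: Gclm over Gclc and Nfe2l2 over Keap1 as ratios of CPM per kilobase, and CPM of Srxn1 per 100 CPM of Prdx1. The Gclm ratio is lower in Male and in KD, the Nfe2l2 ratio is higher in Male, and the Srxn1 ratio is above 4 in WT and KD and near 2 in Female and Male.

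The wider pathway was described with 7 lists of 81 genes in all, written from textbook knowledge but with earlier results of these data known. In the sex comparison 75 of their 82 identifiers were tested, and 35 were higher in Male, 22 lower and 18 not called, with a median log2 difference of 0.12, where 23.5% of all genes were higher and 26.3% lower. The list of NADPH supply had the highest median, 0.81, with 6 of 11 identifiers higher and 1 lower. NADPH is an electron donor of Gsr, Txnrd1 and Nqo1. The list also holds Tkt, Taldo1, Rpia and Pgls, pentose phosphate enzymes that do not themselves make NADPH, and it counts Nnt once per identifier. Among them G6pdx, the first enzyme of the pentose phosphate pathway, was at 55.4 against 26.3 CPM in Male and Female (log2 difference 1.07, edgeR adjusted p = 3.25e-09). Pgd, the next NADPH-making enzyme of that pathway, was at 179.7 against 90.2 CPM (0.99), and Tkt, transketolase, at 588 against 334 CPM (0.82). Idh2, mitochondrial isocitrate dehydrogenase, went the other way, at 35.0 against 44.9 CPM (-0.36).

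Among 22 tested genes of glutathione use and supply, 12 were higher in Male and 5 lower. Chac1, which degrades glutathione, was at 26.6 against 12.0 CPM in Male and Female, and Slc3a2, a subunit of the cystine and amino acid transporters, at 453 against 329 CPM. Mgst2, a microsomal glutathione S-transferase, was lower in Male, at 53.7 against 123 CPM (log2 difference -1.19, edgeR adjusted p = 9.39e-11). Of 10 genes of the thioredoxin and peroxiredoxin system outside the chosen members, 5 were higher and 5 lower. Txn1, the cytosolic thioredoxin that Txnrd1 reduces, was higher at 164 against 93.5 CPM (0.81), and Txnip, which binds and inhibits thioredoxin, was lower at 384 against 1075 CPM (-1.48, edgeR adjusted p = 6.85e-12). Prdx3, a mitochondrial peroxiredoxin, was higher by 0.26 on the log2 scale, while Prdx4 and Prdx6 differed by -0.42 and -0.40.

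NRF2 partners and regulators were mixed in the sex comparison, with 3 of 13 higher and 5 lower and a median near 0. Bach2, a repressor that shares MAF partners and DNA sites with NRF2 and restrains effector differentiation of T cells, was lower in Male at 64.3 against 179 CPM (log2 difference -1.48, edgeR adjusted p = 4.86e-10). The small MAF genes Mafk and Mafg were higher, by 0.39 and 0.23, and Rbx1, a subunit of the KEAP1 ligase, by 0.47. Sqstm1, which encodes the KEAP1-binding autophagy receptor p62, differed by -0.33. Of 9 iron and heme genes 4 were higher and 4 lower. The transferrin receptor Tfrc, at 381 against 214 CPM, and the ferritin light chain Ftl1, at 403 against 297 CPM, were higher in Male. The ferritin heavy chain Fth1 was lower in Male, at 118 against 134 CPM. So were Slc48a1, at 48.4 against 66.2 CPM, and Blvrb, at 3.10 against 4.47 CPM. Sod1, Sod2 and Cat were all higher, by 0.24, 0.17 and 0.18. Of other known targets of NRF2, 2 of 7 were higher and 2 lower, near the shares over all genes. The epoxide hydrolase gene Ephx1 was at 3.53 against 8.04 CPM in Male and Female (-1.19). Pir, named after its values were seen because its level was below the minimum for naming, was higher at 0.582 against 0.237 CPM (1.30, edgeR adjusted p = 0.0139).

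In KD against WT, 76 of the 82 identifiers were tested, and 15 were higher, 29 lower and 32 not called, with a median log2 difference of -0.08, where 16.8% of all genes were higher and 18.4% lower. Of the 13 partners and regulators 7 were lower and none was higher. Bach1, a repressor of Hmox1, was at 35.4 against 46.7 CPM in KD and WT (log2 difference -0.40, edgeR adjusted p = 6.57e-05), Mafg at 56.5 against 70.2 CPM (-0.31) and Sqstm1 at 119 against 146 CPM (-0.29). Bach2 did not pass the test, with 41.0 against 42.8 CPM and an edgeR adjusted p of 0.254. The list of NADPH supply had 6 of 11 identifiers lower and 2 higher. On the log2 scale Pgd was at -0.21, Taldo1 at -0.23, Idh1 at -0.61 and, higher, Tkt at 0.11. The largest called change of the list was that of malic enzyme, Me1, at 0.332 against 1.06 CPM (-1.69, edgeR adjusted p = 0.00660), which was named after its values were seen. Ftl1, which stores iron and is a known NRF2 target, was at 443 against 749.5 CPM in KD and WT (-0.76, edgeR adjusted p = 3.68e-09), and Tfrc, which takes iron up, moved in the opposite direction at 868 against 621 CPM (0.48).

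Glutathione use and supply had 7 of 23 tested genes higher in KD and 5 lower. The falls included Ggt1, which cleaves extracellular glutathione, at 12.3 against 40.3 CPM in KD and WT (log2 difference -1.71, edgeR adjusted p = 4.21e-09), and Chac1 at 0.563 against 3.26 CPM (-2.55). Mgst2 and the glutathione transferase gene Gsto1 rose, by 0.40 and 0.50. Gpx7, below the minimum for naming and named after its values were seen, was higher at 0.750 against 0.334 CPM (1.16, edgeR adjusted p = 0.0103). Over the 7 lists, 75 identifiers entered both fits and 36 of them passed in each, 22 with opposite signs (29.3%), such as Mgst2 and Chac1, and 14 with the same sign (18.7%), such as Txnip and Tfrc. Over all genes these shares were 14.1% and 11.5%. Of the thioredoxin and peroxiredoxin genes 3 of 10 were higher and 4 lower. Txnrd3, a thioredoxin reductase best known from testis, was higher at 5.49 against 2.78 CPM (0.98), in contrast to Txnrd1, and Txn2, the mitochondrial thioredoxin, was higher by 0.28, while Txn1 differed by -0.14 and Txnip by -0.28. Of the 7 other targets tested 1 was higher and 2 lower. Osgin1, an oxidative stress response gene, fell to 9.61 against 21.1 CPM (-1.14, edgeR adjusted p = 1.11e-06), and Ephx1 rose to 4.20 against 1.69 CPM (1.31). Pir, again named after its values were seen, was lower at 0.187 against 1.10 CPM (-2.52, edgeR adjusted p = 0.000205). Sod2 was higher by 0.10, while Sod1 and Cat were lower, at -0.26 and -0.12.

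**Figure D5:**
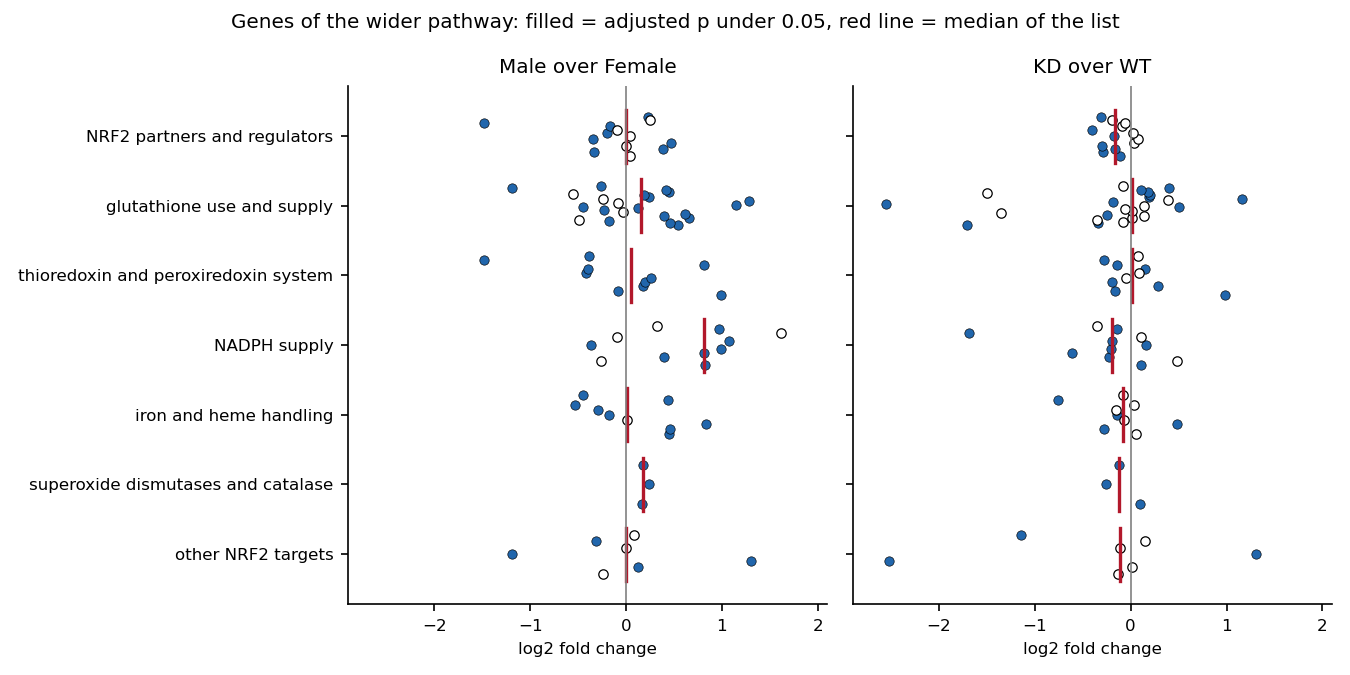
Log2 fold change of each tested gene of the 7 pathway lists, Male over Female on the left and KD over WT on the right, with 1 point per gene identifier, filled where the edgeR adjusted p was under 0.05, and the median of a list as a red line. The NADPH list has its median at 0.81 on the left, and partners and regulators have no filled point above 0 on the right.

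Likeness to Nfe2l2 was measured as Pearson's r of log2 CPM over the 12 samples, each table centred on its own mean, among 8749 genes with a mean of at least 10 CPM in each table. The samples share their libraries and fall into 4 groups, so r mostly reads the 2 group differences and is given as a description. Outside the chosen genes and lists, the most alike were P4hb, protein disulfide isomerase, with r = 0.986, Sdha, a subunit of succinate dehydrogenase, with r = 0.984, and Fndc9 with r = 0.981. Among the 10 genes themselves Gsr had r = 0.98, Txnrd1 0.966, Prdx1 0.937 and Keap1 0.902, whereas Gclc had 0.299 and Gclm -0.095. Nqo1, Hmox1 and Srxn1 were below 10 CPM in at least 1 table and were not compared. The size of the differences was not shared by the most alike genes: P4hb differed by 0.208 in Male against Female and by -0.054 in KD against WT, and Fndc9 by 1.208 and -0.32, on the log2 scale.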

How the data were processed

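RNA of 12 samples was sequenced from stranded, ribosome-depleted total RNA libraries, per the labels' protocols. The authors deposited 2 tables of whole-number counts, 1 row for each gene. The first holds the Female and Male samples, the second WT and KD. The submitters' processing notes name bcl2fastq 2.20.0, HISAT2, StringTie, DESeq2 and the build mm10, without roles. The use of strand and the annotation were not given in the sources used here. GENCODE M21 matched 55227 of 55487 identifiers and left 260 unmatched.

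Groups came from the sample titles. The 6 samples of a table were fitted together, apart from the other table, by edgeR 4.0.16 under R 4.3.3 (TMM, filterByExpr, quasi-likelihood test, Benjamini-Hochberg adjustment over all genes tested, calls at an adjusted p under 0.05), which was tested on simulated data. The standard error is the log2 fold change over the square root of F. CPM used TMM-scaled library sizes, and RPKM divided CPM by kilobases of merged exons. Total counts were 78748647 to 110803318 per sample. Of the members, the low-count genes Nqo1 and Srxn1 had the largest standard errors in Male against Female, 0.17 and 0.14. In KD against WT the largest was that of Hmox1, 0.14, whose KD samples were spread.

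The members and lists were chosen with earlier results of these data known. All members were named. Of each list, the rule took up to 3 called genes with the smallest p per direction and comparison, at a mean of at least 1 CPM, of which some are printed. Alternatives were RLE and upper-quartile scaling, other low-count filters, DESeq2 1.42.0, limma-voom (limma 3.58.1), all 12 samples in 1 fit, a replicate block, counts divided by 4, an adjusted p under 0.01 and leaving out each replicate.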

Additional observations from a re-analysis of the deposited data

How the results depend on the processing

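The count of members called in Male against Female was 9 under all 10 alternatives and with each replicate left out. In KD against WT it was 9 of 10 in the main fit, 8 with upper-quartile scaling, 6 at an adjusted p under 0.01, and 7 to 9 with 1 replicate left out. Across both comparisons, 179 of 180 member fits under other settings and 116 of 120 with a replicate left out kept direction and side of the threshold, and 0 reversed. The exceptions were Keap1 and Nfe2l2 in KD, given above, and the cause was not tested. These fits do not include the stricter threshold of 0.01. At that threshold Keap1, Nfe2l2 and also Hmox1 (edgeR adjusted p = 0.0124) lost their call in KD. Calls of pathway genes ranged from 48 to 57 with sex and from 37 to 47 in KD. In KD against WT, Sod2, Cat, Fth1 and Idh2 lost their call without certain replicates, Idh2 in 5 of 6 such fits. Their log2 differences in the main fit were 0.10, -0.12, -0.14 and 0.16. Cat also lost it with upper-quartile scaling, and Idh2 without a low-count filter. With sex, Ugdh lost its call without certain replicates.

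Replicate numbers come from the titles alone. Same-numbered samples had mean correlations of deviations of 0.005 with sex and -0.008 in KD against WT. Samples of different number had -0.002 and 0.004. No pairing by number was visible, but so few samples cannot settle whether equal numbers share a mouse or culture. With the replicate block, 9 members were called in each comparison, 54 and 45 pathway genes, and 9740 and 6688 genes in all.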

Other observations

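Nnt, the mitochondrial transhydrogenase that makes NADPH, has 2 identifiers in the annotation, ENSMUSG00000025453 and ENSMUSG00000116207, whose counts varied widely between replicates of a group. In WT the first ranged from 5.09 to 16.3 CPM and the second from 3.00 to 12.1 CPM, while their sum ranged only from 17.2 to 19.3 CPM. In KD the sum was 19.0 to 20.9 CPM, in Female 14.9 to 18.1 CPM and in Male 14.2 to 16.2 CPM. The rows of the single identifiers are therefore uncertain, and the sums of Female and Male overlapped.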
